A study of Homo sapiens with 60 samples.

Results

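Plasmin is made from plasminogen by the activators urokinase (PLAU) and tissue-type plasminogen activator (PLAT). The 5 genes described here are PLAU, its cell-surface receptor PLAUR, PLAT, the serpin SERPINE2 and the coagulation starter F3, taken by name from the 60675 genes of the deposited table, and all 5 passed the filter on low counts that 17764 genes passed. RNA was sequenced from A549, a human lung adenocarcinoma cell line, after 24 h with ethanol extracts of Glycyrrhizae Radix, Panax Ginseng, Poria Cocos and Atractylodis Rhizoma (n = 3 libraries per dose), a water extract of Sibjeondaebo-tang (n = 3 per dose), a water extract of Palmul-tang (n = 2 per dose), or ethanol extracts of Paeoniae Radix and Angelicae Gigantis Radix (1 library per dose), each at a low (20), a medium (100) and a high (500 µg/mL) dose. The vehicle was DMSO (n = 3), at 0.1% in the library labels and 2% in the design text. The design text also says that extracts with a low inhibitory concentration (IC20 under 500 µg/mL) were given at smaller doses set from it, while the library labels give the same 3 doses for every extract. There were 60 libraries in 25 groups, of 18602484 to 29764358 counts each. Whether the libraries of 1 group stem from different cultures is not said in the labels, and the p-values then speak only of the spread between libraries, which may be technical.

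Urokinase is secreted as a proenzyme and bound at the cell surface by its GPI-anchored receptor, where it cuts plasminogen to plasmin, a protease that degrades fibrin and matrix proteins and activates some metalloproteases. Serpins such as SERPINE2 (protease nexin 1) trap the activators in complexes that endocytic receptors such as LRP1 clear. SERPINE2 also inhibits thrombin. F3, tissue factor, is neither an activator nor an inhibitor of plasminogen: it is the membrane receptor for factor VIIa that starts blood coagulation, whose product fibrin plasmin dissolves.

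Libraries had the markers of the labelled cell line. All 10 epithelial and A549 markers, keratins, ALDH1A1 and AKR1B10 among them, were above 0 in every library. Among 4 leukocyte markers 3 had a median under 1 CPM (CPM is a gene's reads scaled to a common library total, TMM-corrected), with PTPRC, CD3E and LYZ at a median of 0, and so had 3 of 4 endothelial markers, with CDH5 and VWF at a median of 0, and 2 of 6 fibroblast markers. The exceptions included KDR, with a median of 19.7 CPM, and COL3A1, with 7.96 CPM.

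PLAU was the most abundant of the 5 transcripts per length. Its median over the 60 libraries was 19.5 CPM per kb of exon, against 2.17 for PLAUR, 1.43 for SERPINE2, 0.705 for F3 and 0.147 for PLAT. Exon length is that of all annotated exons of a gene joined, 2950 bases for PLAU and 8891 for SERPINE2. It can exceed the length of the transcripts present. In CPM without the length correction the ranges were 29.6 to 72.0 for PLAU, 7.48 to 41.8 for PLAUR, 9.80 to 41.6 for SERPINE2, 1.41 to 2.73 for F3 and 0.520 to 2.05 for PLAT. PLAT rested on 12 to 54 reads per library and F3 on 34 to 72, so small changes in these 2 genes were not detectable at this depth, while PLAU had 711 to 1698 reads, PLAUR 167 to 838 and SERPINE2 211 to 835.

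On GRCh38, PLAU (ENSG00000122861) lies on the plus strand of chromosome 10 from 73909177 to 73917497. PLAUR (ENSG00000011422) lies on the minus strand of chromosome 19 from 43646095 to 43670547, SERPINE2 (ENSG00000135919) on the minus strand of chromosome 2 from 223975112 to 224039319, and F3 (ENSG00000117525) on the minus strand of chromosome 1 from 94529225 to 94541800. C10orf55 overlaps PLAU on the opposite strand with 9 to 32 reads per library. The strand setting of the counting is not given in the sources used here, so reads of the 2 genes may not be told apart there, but C10orf55 had a median of 20.5 reads against 1385 for PLAU.

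Promoter windows, 250 bases before to 50 after the annotated start, were taken from RefSeq (GRCh38.p14) for 4 of the 5 genes. They are shown because several of the AP-1 factors, which bind TGANTCA, a motif whose letters read the same on both strands, rose with the Glycyrrhizae high dose described below. Capitals mark TGANTCA. The windows are chr19:43670120-43670419 (minus strand) for PLAUR, chr1:94541710-94542009 (minus) for F3, chr2:224038591-224038890 (minus) for SERPINE2 and chr10:73910882-73911181 (plus) for PLAU.
PLAUR: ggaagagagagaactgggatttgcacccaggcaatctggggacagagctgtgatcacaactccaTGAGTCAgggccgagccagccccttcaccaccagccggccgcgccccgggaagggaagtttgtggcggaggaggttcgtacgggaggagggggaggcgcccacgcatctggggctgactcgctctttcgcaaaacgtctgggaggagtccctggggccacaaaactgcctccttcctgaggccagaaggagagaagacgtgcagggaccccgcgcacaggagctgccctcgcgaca
F3: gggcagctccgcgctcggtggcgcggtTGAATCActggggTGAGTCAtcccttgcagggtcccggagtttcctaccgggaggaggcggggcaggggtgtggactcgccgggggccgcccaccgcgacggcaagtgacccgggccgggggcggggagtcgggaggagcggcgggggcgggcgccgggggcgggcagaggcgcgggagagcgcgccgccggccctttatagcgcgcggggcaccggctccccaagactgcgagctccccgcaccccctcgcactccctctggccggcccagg
SERPINE2: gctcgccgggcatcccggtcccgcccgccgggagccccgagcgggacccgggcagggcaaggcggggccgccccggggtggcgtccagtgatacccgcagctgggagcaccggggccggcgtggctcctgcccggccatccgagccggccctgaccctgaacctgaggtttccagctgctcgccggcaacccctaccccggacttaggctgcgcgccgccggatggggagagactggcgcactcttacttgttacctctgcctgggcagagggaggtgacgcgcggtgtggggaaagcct
PLAU: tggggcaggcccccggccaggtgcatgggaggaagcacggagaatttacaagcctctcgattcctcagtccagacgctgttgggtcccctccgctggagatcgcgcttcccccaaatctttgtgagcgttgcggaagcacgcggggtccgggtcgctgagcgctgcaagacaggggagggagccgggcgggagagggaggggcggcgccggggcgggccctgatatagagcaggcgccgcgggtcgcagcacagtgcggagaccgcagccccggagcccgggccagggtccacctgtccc
PLAUR has 1 match, which begins at position -186 from the start, and F3 has 2, at -223 and -210. Neither of the 2 windows of SERPINE2 nor of the 2 of PLAU holds these letters, which says nothing of sites elsewhere. Of all 35116 RefSeq windows of this length, 7.71% hold TGANTCA. The core bound by the aryl hydrocarbon receptor, GCGTG, was searched on both strands and occurs once in the printed windows of PLAUR, SERPINE2 and PLAU and not in that of F3, and 36.5% of all windows hold it. Other letters were searched too. The Sp1 box, GGGCGG, has 4 matches in the printed window of F3, 3 in PLAU, 2 in SERPINE2 and 0 in PLAUR, and 45% of all windows hold it. No window of these genes holds TGACGTCA (CRE) or TGATGCAA (ATF4 composite), which 1.85% and 0.866% of all windows hold. Letters bound by ETS factors were not searched. A match is only a run of letters, and binding was not measured.

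**Figure D1:**
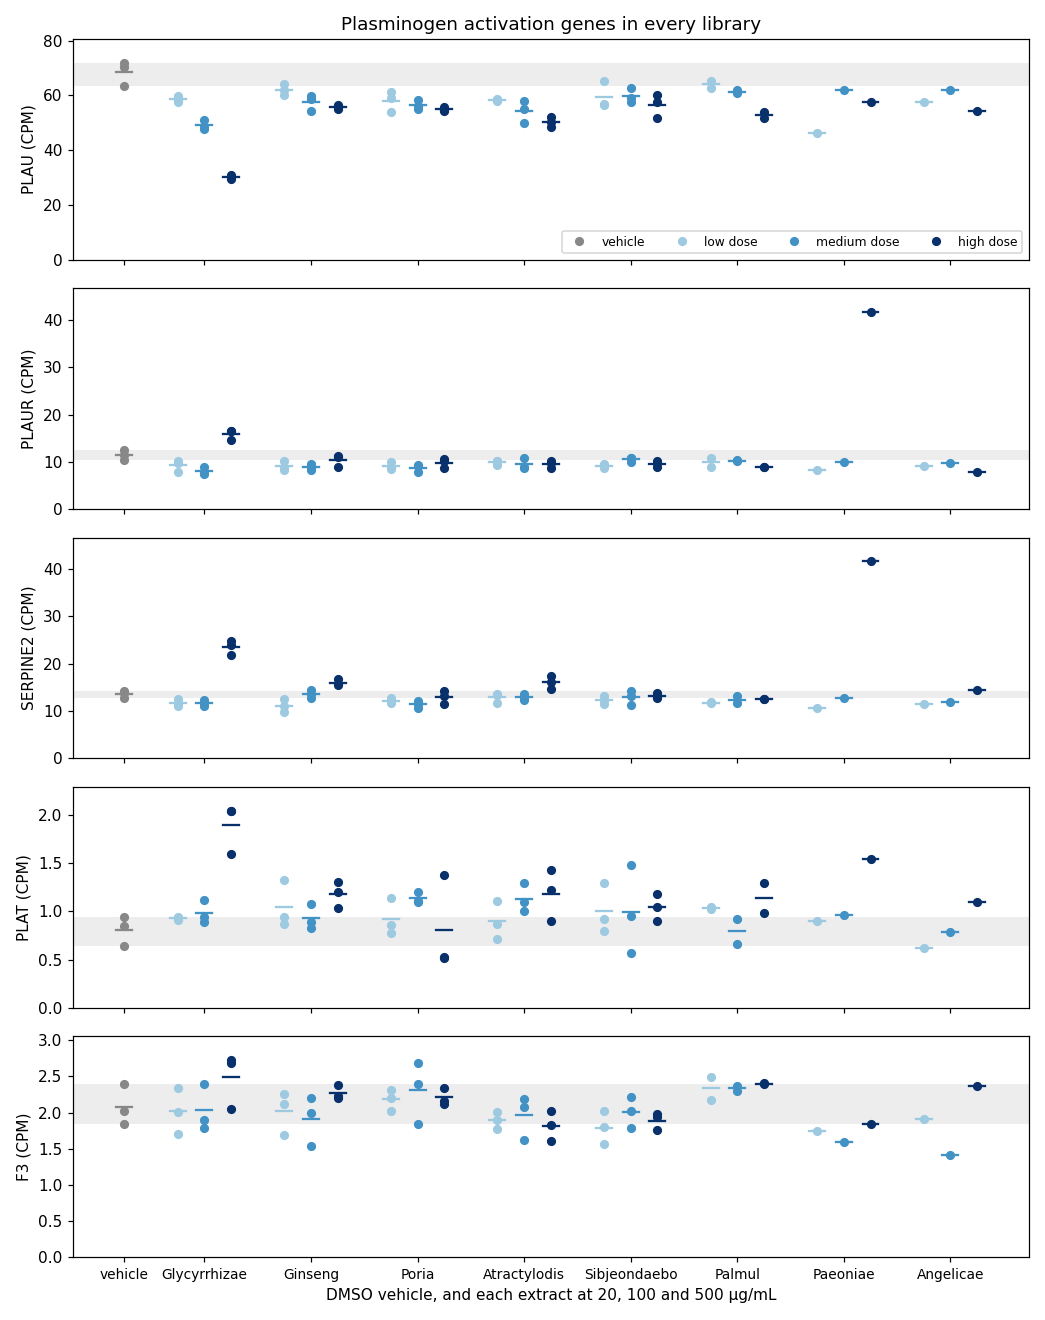
CPM of the 5 genes in every library, vehicle first and then each extract from low to high dose. Points are libraries, horizontal bars are group means and the grey band is the range of the 3 vehicle libraries. PLAU was lowest with the Glycyrrhizae high dose (29.6 to 31.0 CPM), and PLAUR and SERPINE2 were highest in the single Paeoniae high-dose library (41.8 and 41.6 CPM).

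The main question was what each extract did to the 5 transcripts between 20 and 500 µg/mL, a comparison within an extract that does not involve the vehicle. The Glycyrrhizae (licorice) extract lowered the urokinase transcript to 0.515 of its low-dose level and raised its receptor, the inhibitor SERPINE2 and the other activator, PLAT. By the quasi-likelihood test of edgeR, Benjamini-Hochberg adjusted over all genes, 4 of the 5 genes were called, where 37% of all genes tested were called. In a comparison that moved so many genes, the count of called members carries little by itself. Bulk libraries cannot tell a change in every cell from a change in the share of cells that express a gene.

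PLAU had 29.6, 31.0 and 30.1 CPM at high dose, against 57.7, 59.8 and 58.4 CPM at low dose. Every high-dose library was far below every low-dose one. The log2 change was -0.96 ± 0.06 (SE; edgeR adjusted p = 2.27e-18). At medium dose PLAU had 47.6, 48.4 and 51.1 CPM, between the other doses and overlapping neither. At medium against low dose the log2 change was -0.26 ± 0.06 (SE; edgeR adjusted p = 0.00813), and PLAU was the only one of the 5 genes called in that comparison, in which 0.788% of genes were called. That call was lost without medium-dose replicate 1 (edgeR adjusted p = 0.0527) or replicate 2 (0.059), and when only these 2 groups were fitted (0.343). At high against medium dose PLAU had a log2 change of -0.70 (edgeR adjusted p = 1.42e-13), and 4 of the 5 genes were called, where 36% of all genes were.

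PLAUR, the urokinase receptor, had 16.6, 16.6 and 14.7 CPM at high dose, against 9.82, 7.84 and 10.1 CPM at low dose. The groups did not overlap, and the log2 change was 0.78 ± 0.10 (SE; edgeR adjusted p = 6.59e-09). Medium-dose libraries, at 8.90, 7.72 and 7.48 CPM, were not called against low dose, the dose at which PLAU was.

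SERPINE2 had 23.9, 24.8 and 21.9 CPM at high dose, against 12.4, 11.0 and 11.7 CPM at low dose. Every high-dose library was above every low-dose one, with a log2 change of 1.01 ± 0.08 (SE; edgeR adjusted p = 1.92e-14). The medium dose gave 12.3, 11.6 and 11.0 CPM, inside or close to the low-dose range. Per kb of exon, PLAU averaged 10.2 CPM and SERPINE2 2.65 at high dose, and at low dose 19.9 for PLAU and 1.31 for SERPINE2. The values of PLAU and SERPINE2 stood nearer to each other at high dose, and their distance depends on the exon lengths used.

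PLAT, the activator best known from vessel walls and the nervous system, (ENSG00000104368, chromosome 8, minus strand, 42175233 to 42207724) was scarce throughout, with 2.05, 2.05 and 1.60 CPM at high dose, against 0.944, 0.927 and 0.914 CPM at low dose. These are 54, 47 and 43 reads against 25, 24 and 26. The groups did not overlap and the log2 change was 1.03 ± 0.25 (SE; edgeR adjusted p = 0.000814).

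F3 had 2.73, 2.05 and 2.68 CPM at high dose, against 2.34, 1.70 and 2.00 CPM at low dose. The groups overlapped and tissue factor was not called, with a log2 change of 0.31 ± 0.15 (SE; edgeR adjusted p = 0.103; 95% interval 0.01 to 0.61). It was called without high-dose replicate 2 (log2 change 0.43, edgeR adjusted p = 0.0346) and without low-dose replicate 1 (0.43, 0.0439).

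Other transcripts of the cell line moved in the same high-dose libraries. The summed CPM of the 10 epithelial and A549 markers was 16780 to 16915 at Glycyrrhizae high dose, against 20370 to 20676 at low dose. The endothelial markers summed to 12.6 to 12.97 CPM, against 21.2 to 22.1 CPM, and the fibroblast markers to 10.4 to 11.0 CPM, against 15.5 to 17.8 CPM. The leukocyte markers summed to 3.34 to 3.99 CPM, against 2.32 to 2.91 CPM. Leukocyte markers other than CD14 were each at most 0.0866 CPM in any library, so that sum was nearly CD14 alone. Likewise the endothelial sum was nearly KDR alone, with each other marker at most 0.503 CPM. The part of these shifts in the changes of the 5 genes was not tested.

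**Figure D2:**
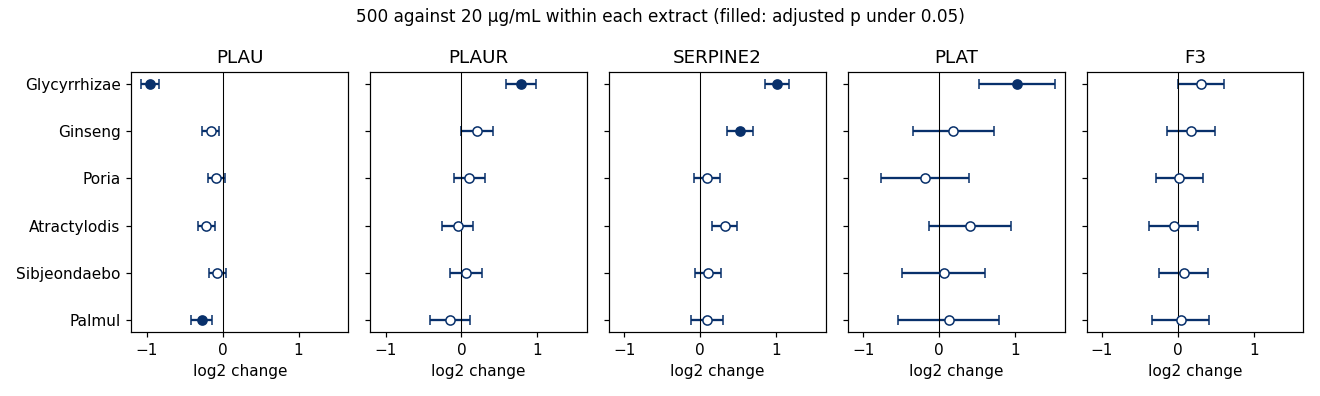
Log2 change of each gene between 500 and 20 µg/mL for the 6 replicated extracts, with 95% intervals, filled where the edgeR adjusted p is under 0.05. The Glycyrrhizae changes of PLAU (-0.96), PLAUR (0.78), SERPINE2 (1.01) and PLAT (1.03) stand away from 0, and beside them SERPINE2 with Ginseng (0.53) and PLAU with Palmul-tang (-0.28) are filled.

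The other 5 replicated extracts moved 2 of the genes, each in 1 extract. Ginseng raised SERPINE2, which had 16.7, 15.8 and 15.4 CPM at high dose, against 11.1, 9.80 and 12.5 CPM at low dose. The groups did not overlap, and the log2 change was 0.53 ± 0.08 (SE; edgeR adjusted p = 0.000146), 1 of the 5 genes called at a background of 1.2% of all genes. The call was kept without each of the 6 libraries in turn and was lost when only these 2 groups were fitted (edgeR adjusted p = 0.0681). Neither step was called by itself: the log2 change was 0.29 at medium against low dose (edgeR adjusted p = 1, with 0% of all genes called) and 0.24 at high against medium dose (0.436, with 0.276% called). PLAU with Ginseng had 54.9, 56.3 and 55.5 CPM at high dose, against 60.2, 64.0 and 61.9 CPM at low dose. Those libraries did not overlap either, but the difference of -0.16 ± 0.06 (SE) was not called (edgeR adjusted p = 0.213). How many of all genes separated in this way was not counted.

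Palmul-tang lowered PLAU, with 53.9 and 51.8 CPM at high dose, against 62.9 and 65.3 CPM at low dose. The log2 change was -0.28 ± 0.07 (SE; edgeR adjusted p = 0.0165), 1 of the 5 genes called at a background of 2.08%. With 2 libraries per dose this call rests on each of them: it was lost without high-dose replicate 2 (edgeR adjusted p = 0.0668) or 3 (0.226) and without low-dose replicate 2 (0.0857) or 3 (0.184).

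With Atractylodis none of the 5 genes was called by edgeR, at a background of 0.208%. DESeq2 called 1 of the 5 and 67 of all genes. An unadjusted edgeR p under 0.05 was seen in 2 of the 5 and in 1217 of the 17764 genes. Those 2 were PLAU and SERPINE2. PLAU had 50.3, 48.4 and 52.2 CPM at high dose, against 58.5, 58.6 and 57.8 CPM at low dose (log2 change -0.21, edgeR adjusted p = 0.105). SERPINE2 had 17.3, 14.7 and 16.2 CPM, against 11.7, 13.3 and 13.5 CPM (0.32, 0.0908). In both genes the high-dose and low-dose libraries did not overlap, but the share of all genes that separated in this way was not counted. DESeq2 called PLAU (adjusted p = 0.0323), and edgeR called SERPINE2 when no filter on low counts was applied (adjusted p = 0.0283).

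Poria and Sibjeondaebo-tang gave no edgeR call among the 5 genes, at backgrounds of 1.55% and 3.78% of all genes. DESeq2 called none of the 5 either, and 356 and 699 of all genes. None of the 5 had an unadjusted edgeR p under 0.05, which 2112 and 2662 of the 17764 genes had. For PLAU the 95% interval of the log2 change was -0.19 to 0.03 with Poria and -0.18 to 0.04 with Sibjeondaebo-tang. For SERPINE2 it was -0.08 to 0.26 and -0.07 to 0.27, both of which leave out the 1.01 seen with Glycyrrhizae.

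The Glycyrrhizae changes differed from those of every other replicated extract for PLAU, PLAUR and SERPINE2. Set against the same high against low change of Ginseng, Poria, Atractylodis, Sibjeondaebo-tang and Palmul-tang in 1 model, the differences ran from -0.88 to -0.68 for PLAU, from 0.57 to 0.93 for PLAUR and from 0.48 to 0.92 for SERPINE2, and all 15 were called by edgeR. Of all genes, 21%, 23.7%, 24.2%, 24.4% and 20.8% were called in these 5 comparisons. PLAT differed from its change with Poria by 1.21 ± 0.38 (SE; edgeR adjusted p = 0.0149) and was not called against the other 4, the nearest being Sibjeondaebo-tang (0.96, edgeR adjusted p = 0.05, just above the threshold). F3 was called against none of the 5. The PLAT difference from Poria was lost without Poria high-dose replicate 1 (edgeR adjusted p = 0.0631) or 2 (0.0668) or low-dose replicate 2 (0.0667). In that group PLAT had 0.530, 0.520 and 1.38 CPM at high dose, against 0.856, 1.14 and 0.776 CPM at low dose, so 1 of the 3 high-dose libraries stood apart from the other 2.

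**Figure D3:**
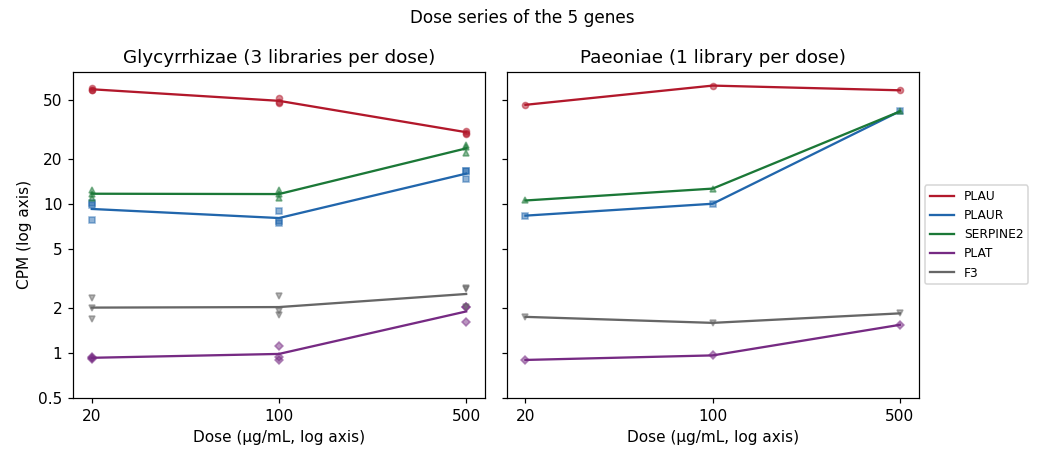
CPM (log axis) of the 5 genes over the 3 doses (log axis) of the Glycyrrhizae extract, 3 libraries per dose with lines through the means, and of the Paeoniae extract, 1 library per dose. With Glycyrrhizae PLAU goes down at each dose while PLAUR and SERPINE2 go up only at 500 µg/mL. With Paeoniae PLAUR and SERPINE2 are highest at 500 µg/mL. PLAU with Paeoniae has 46.1, 62.0 and 57.7 CPM at low, medium and high dose.

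The Paeoniae extract, with 1 library per dose and so no replicate check and no test, had the highest level of 2 of the genes in the series. PLAUR had 41.8 CPM at high dose (838 reads, exact binomial 95% interval 39.0 to 44.7 CPM), against 8.33 CPM at low dose (167 reads, 7.12 to 9.69 CPM), a ratio of 5.01. On the scale of log2(CPM + 1) the difference was 2.20, which ranked 28 among 17764 genes by rise. SERPINE2 had 41.6 CPM (835 reads, interval 38.8 to 44.5 CPM), against 10.5 CPM (211 reads, 9.15 to 12.05 CPM), a ratio of 3.95, a log2 difference of 1.89 and rank 51. At medium dose PLAUR had 10.0 CPM and SERPINE2 12.7 CPM, so ratios to the medium dose would be smaller. For SERPINE2 the low-dose library was the lowest of the 25 group means. Intervals cover counting error only. The next highest library of any other group had 16.6 CPM of PLAUR and 24.8 CPM of SERPINE2, both with Glycyrrhizae high dose. A log2 difference of at least 1 either way was seen in 4.77% of all genes in this comparison, 2.12% higher and 2.66% lower, and in 2 of the 5 described here.

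PLAU in this extract was higher at high than at low dose but lower than at medium dose. It had 57.7 CPM at Paeoniae high dose, against 46.1 CPM at low dose, and 62.0 CPM at medium dose, so that the low-dose library was the lowest of the 3 and lower than every other library outside the Glycyrrhizae high-dose group. PLAT had 1.54 CPM, against 0.898 CPM, from 31 and 18 reads, and F3 had 1.84 CPM, against 1.75 CPM. At medium dose none of the 5 genes differed from low dose by 1 in log2(CPM + 1), which 0.321% of all genes did. PLAT, at 0.898 CPM at low dose, could not fall by 1 on this scale even with no reads. The epithelial and A549 markers summed to 15088 CPM in the Paeoniae high-dose library, under all other libraries, and the part of that shift in these levels was not tested.

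Angelicae, also with 1 library per dose, showed nothing of the kind: PLAUR had 7.77 CPM at high dose, against 9.18 CPM at low dose, and SERPINE2 had 14.4 CPM, against 11.4 CPM. None of the 5 genes differed by 1 or more in log2(CPM + 1) between these libraries, and 0.129% of all genes did. PLAT, at 0.623 CPM at low dose, could not fall by 1 on this scale even with no reads.

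PLAU was lower than in the vehicle with most extracts and doses. The vehicle libraries had 63.2, 72.0 and 70.4 CPM of PLAU, and 54 of the 57 treated libraries lay below the lowest of them. edgeR called PLAU lower in 16 of the 18 comparisons of a replicated dose with the vehicle, 5 of the 6 low doses included, with log2 changes from -1.18 to -0.10 over the 18. The share of all genes called lower at low, medium and high dose was 14.2%, 16.7% and 23.5% for Glycyrrhizae, 14.2%, 14.6% and 13.7% for Ginseng, 8.65%, 9.19% and 6.41% for Poria and 11%, 10.1% and 12.3% for Atractylodis. It was 11.5%, 8.19% and 6.12% for Sibjeondaebo-tang and 6.72%, 8.93% and 10% for Palmul-tang. The comparisons share the same 3 vehicle libraries, so they are not independent of each other. Titles of vehicle and extract libraries all carry the same batch name, BatchC. The vehicle samples carry a set of sample codes of their own, so code set and treatment cannot be told apart. Of the 16 calls, 13 were kept without each library of the comparison in turn. Without vehicle replicate 2, the highest of the 3, PLAU was not called for Ginseng low (edgeR adjusted p = 0.237), Sibjeondaebo-tang low (0.0507) and Sibjeondaebo-tang medium dose (0.074). The same was seen for Ginseng low without vehicle replicate 3 (0.151), Ginseng low replicate 1 (0.159) or 3 (0.0946), and for Sibjeondaebo-tang medium without its replicate 3 (0.0541).

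PLAUR was called lower than the vehicle in 9 of the 18 comparisons and higher in 1, the Glycyrrhizae high dose (log2 change 0.48, edgeR adjusted p = 6.76e-05). Vehicle libraries had 10.3, 12.5 and 11.4 CPM of the receptor transcript. Only the lower call for Glycyrrhizae medium (-0.51, edgeR adjusted p = 0.000189) and the higher call were kept without each library in turn, and the other 8 lower calls were each lost in at least 1 such fit, with edgeR adjusted p up to 0.267. SERPINE2 was called lower in 4 and higher in 3, of which the higher call for Glycyrrhizae high dose (0.79, edgeR adjusted p = 4.09e-11) was kept without each library, and the other 6 calls were each lost in at least 1 such fit (edgeR adjusted p up to 0.183). Its vehicle libraries had 14.3, 12.8 and 13.9 CPM, and the other 2 higher calls were those of Ginseng and Atractylodis high dose. Of all genes, 23.3%, 15.2% and 13.8% were called higher than the vehicle at high dose of Glycyrrhizae, Ginseng and Atractylodis. PLAT was called higher with Glycyrrhizae high dose alone (1.22, edgeR adjusted p = 0.000161), and F3 in none of the 18.

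Set in order of their means, the 19 replicated groups, of all code sets, were each compared only with their neighbours in that order. Sorting puts close means side by side, so overlap between neighbours does not show that groups further apart overlap. The share of all genes with such separated neighbours was not counted. For PLAU the Glycyrrhizae high group was lowest at 30.2 ± 0.704 CPM (mean ± SD, n = 3), the only one of 18 neighbouring pairs whose libraries did not overlap, and the vehicle was highest at 68.5 ± 4.66 CPM (n = 3). For PLAUR the order ended with the vehicle at 11.4 ± 1.10 CPM below Glycyrrhizae high at 15.9 ± 1.10 CPM, again the only pair that did not overlap. For SERPINE2 there were 2 such pairs, the vehicle below Ginseng high (16.0 ± 0.678 CPM) and Atractylodis high (16.1 ± 1.28 CPM) below Glycyrrhizae high (23.5 ± 1.5 CPM). For PLAT the 1 pair was Atractylodis high (1.18 ± 0.266 CPM) below Glycyrrhizae high (1.90 ± 0.258 CPM), and for F3 it was the medium below the high dose of Palmul-tang, whose means were 0.0655 CPM apart. The single Paeoniae and Angelicae libraries have no spread and were left out of this order.

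Among 19 tested partners of the plasminogen system (of 20 listed, the 5 genes left out), 6 rose and 6 fell with Glycyrrhizae, where 18.5% of all genes rose and 18.4% fell, and their median log2 change was -0.23, beside 0.00 over all genes. The collagen receptor MRC2, which associates with the urokinase receptor, rose by 1.03, and the clearance receptor LRP1 by 0.62. CPB2, a carboxypeptidase that protects fibrin from plasmin, fell by 1.72 on the log2 scale, and VTN, vitronectin, a matrix protein that binds the urokinase receptor, by 0.80. Plasminogen-binding proteins went both ways: S100A10 had a log2 change of -0.50, ENO1 of -0.37 and ANXA2 of -0.27, while the plasminogen receptor PLGRKT had 0.45. SERPINA5, the protein C inhibitor, which also inhibits urokinase, was called lower (-1.72) at a mean of 0.212 CPM at high dose, against 0.705 CPM at low dose. Of the 19, CPB2 was called lower with Ginseng (-0.45) and with Sibjeondaebo-tang (-0.46), the 1 call by edgeR in each of these extracts. Of all genes, 1.2% and 3.78% were called with these extracts.

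**Figure D4:**
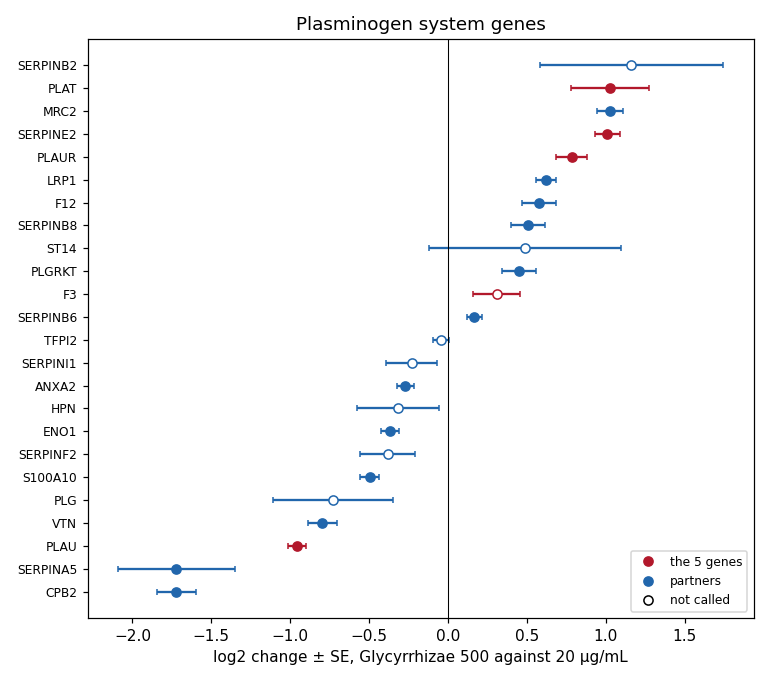
Log2 change ± SE between 500 and 20 µg/mL of the Glycyrrhizae extract for the 5 genes (red) and the 19 tested partners of the plasminogen system (blue), open where not called. Among the called genes PLAT (1.03), MRC2 (1.03) and SERPINE2 (1.01) lie at the upper end, and PLAU (-0.96), SERPINA5 (-1.72) and CPB2 (-1.72) at the lower end.

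Genes around tissue factor and thrombin went both ways with Glycyrrhizae: of 12 tested (20 listed), 4 rose and 5 fell. Of all genes, 18.5% rose and 18.4% fell in that comparison. The median log2 change of the 12 was 0.10. PROS1, protein S, had a change of -0.63, and the protease-activated receptors F2RL1 and F2R had -0.67 and -0.37, while TFPI, the inhibitor of the tissue factor complex, rose by 0.32. Matrix proteases and their inhibitors split evenly, 6 higher and 6 lower of 17 tested (21 listed, median 0.12), beside the same shares of all genes. The inhibitor TIMP3 rose by 1.14 and the sheddase ADAM17 by 0.57, and the metalloproteases MMP24 and MMP28 had changes of -1.10 and -0.79. With the other extracts few members of these 2 lists were called. Of all genes, 1.2% were called with Ginseng, 1.55% with Poria, 0.208% with Atractylodis, 3.78% with Sibjeondaebo-tang and 2.08% with Palmul-tang. THBD, thrombomodulin, rose with Ginseng (0.28), while PROS1 fell with Poria (-0.15) and TFPI with Sibjeondaebo-tang (-0.20). MMP28 fell with Sibjeondaebo-tang (-0.28) and Palmul-tang (-0.45), ADAM9 fell with Sibjeondaebo-tang (-0.14) and ADAM17 rose with Palmul-tang (0.17).

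Members of the AP-1, ETS and EGR transcription factor families are known to act on PLAU and PLAUR in other cells. Of 22 such factors tested (24 listed), 11 rose and 3 fell with Glycyrrhizae, where 18.5% of all genes rose and 18.4% fell. The median log2 change of the 22 was 0.47. ATF3 rose by 2.84, ETV4 by 1.46, JUN by 1.25 and ETV5 by 1.17. In the other 5 extracts at most 2 of the 22 were called, ETV4 among them with Ginseng (0.32, edgeR adjusted p = 0.00688) and Poria (0.33, 0.00317). The share of all genes called was 1.2% with Ginseng, 1.55% with Poria, 0.208% with Atractylodis, 3.78% with Sibjeondaebo-tang and 2.08% with Palmul-tang. The epithelial ETS factor EHF fell with Glycyrrhizae (-0.68), Sibjeondaebo-tang (-0.34) and Ginseng (-0.27).

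Over the 25 group means of log2 CPM, the genes whose pattern was most like each of the 5 among 10667 candidates were MMP24 for PLAU (Pearson r = 0.93), SLC6A8 for PLAUR (0.98), LOXL2 for SERPINE2 (0.97), ZNF621 for PLAT (0.83) and QSOX2 for F3 (0.70). These values are descriptions over groups that share 1 normalization and, for the doses of an extract, a set of sample codes, and they lean on the 2 groups in which the genes were extreme. Without the high doses of Glycyrrhizae and Paeoniae, a check chosen after seeing the data, r over 23 groups was 0.80 for MMP24, 0.64 for SLC6A8, 0.77 for LOXL2, 0.61 for ZNF621 and 0.68 for QSOX2. Between PLAUR and SERPINE2 r was 0.92 over 25 groups and 0.32 over the 23, and between PLAU and PLAUR it was -0.13 and 0.65.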

How the data were processed

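Messenger RNA of 60 A549 libraries was read as 1 column each of a deposited table of 270 columns and the other 210 columns were not used here. Values are expected counts per gene, which the authors made, per the submitters' processing notes, with FastQC 0.11.9, Trim Galore 0.6.5, STAR 2.7.3a and RSEM 1.3.3 on GRCh38. No annotation release and no word on strand in counting is given in the sources used here, and per the labels' protocols the library kit is directional. Of the values above 0, 76.0% were whole within 1e-09, and all were rounded. Symbols and positions came from the gene name tables and GENCODE 29 (57055 of 60675 identifiers matched).

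Counts were scaled by TMM, filtered with filterByExpr and fitted with edgeR 4.0.16 (R 4.3.3; estimateDisp, glmQLFit, glmQLFTest) as 1 mean per group over all 60 libraries, leaving 35 residual degrees of freedom (common biological variation 5.59%). Benjamini-Hochberg adjustment ran over all 17764 genes, with calls at 0.05. The SE was taken as the log2 change over the root of its F statistic. Over 43 comparisons, 18 set doses of an extract against each other, 18 set a dose against the vehicle and 7 tested a difference between extracts. Libraries without replicates were compared by log2(CPM + 1), with exact binomial intervals. No pair of replicates agreed within sampling noise (chi-square per degree of freedom 2.72 to 40.3 over 51 pairs). Fits were also run on simulated counts without code-set or replicate effects. The outcome is not given here, and nothing is drawn from it.

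The 5 genes and all lists were chosen with earlier results of these data known. Partner genes named are the 4 of a list with the smallest adjusted p among those called with at least 5 CPM in either group, and likeness was ranked by Pearson r among genes of at least 5 CPM, of which the first is printed. S100A10, ENO1, ANXA2, PLGRKT, SERPINA5, EHF, THBD, KDR, COL3A1 and the genes of the Paeoniae library outside the 5 were named after their values were seen. Alternatives were DESeq2 1.42.0, RLE in place of TMM, fits of all genes with no low-count filter or of only the groups compared, a replicate block and leaving out each library. The positive control named in the design text was not analysed here, and 2 genes of the lists are not reported here.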

Additional observations from a re-analysis of the deposited data

Results flagged for a closer look

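For PLAU, PLAUR and SERPINE2 the change between high and low dose of the Glycyrrhizae extract differed from that of each of the 5 other replicated extracts by edgeR's test of the difference, which is why they are set out here. The PLAU difference was -0.80 against Ginseng, -0.87 against Poria, -0.74 against Atractylodis, -0.88 against Sibjeondaebo-tang and -0.68 against Palmul-tang on the log2 scale. For the receptor PLAUR it was 0.57, 0.68, 0.83, 0.73 and 0.93 in the same order of extracts. For the inhibitor SERPINE2 it was 0.48, 0.92, 0.68, 0.91 and 0.92. PLAT differed between Glycyrrhizae and Poria by 1.21. These differences share the 6 Glycyrrhizae libraries.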

How the results depend on the processing

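The Glycyrrhizae calls of PLAU, PLAUR, SERPINE2 and PLAT between high and low dose kept their direction and their call with each alternative tried and without each library in turn. No called change of the 5 genes turned its direction. When only the compared groups were fitted, SERPINE2 with Ginseng changed by 0.52 and was no longer called, leaving 0 of 5 called, the PLAT difference between Glycyrrhizae and Poria was 1.21 and no longer called, and that between Glycyrrhizae and Sibjeondaebo-tang was 0.97 and called. DESeq2 called PLAU with Atractylodis (-0.22), 1 of 5, and no filter on low counts called SERPINE2 with Atractylodis (0.33), 1 of 5. The causes were not tested.

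Leaving out 1 library gave -0.30 to -0.25 for PLAU with Palmul-tang, not called in any of the 4 fits (0 of 5 called in each), 0.21 to 0.43 for F3 with Glycyrrhizae, called in 2 of 6, 0.97 to 1.85 for the PLAT difference from Poria, and 0.74 to 1.10 for that from Sibjeondaebo-tang. With Glycyrrhizae 4 to 5 of the 5 genes were called, where 5773 to 5939 of all genes were called. Replicate numbers were not taken as pairs in the reported fit, and a replicate block was fitted as an alternative. Deviations of same-numbered libraries correlated slightly more than those of different-numbered ones with Poria and Atractylodis and with Glycyrrhizae and Ginseng. The median correlation of deviations was -0.00013 (-0.0994 to 0.0826) for libraries with the same number, against 0.00341 for those with different numbers, in the sample code set of Sibjeondaebo-tang, 0.0307 (-0.0502 to 0.108), against -0.0141, in that of Poria and Atractylodis, and 0.0612 (-0.0201 to 0.241), against -0.0317, in that of Glycyrrhizae and Ginseng. With the replicate block PLAU with Glycyrrhizae changed by -0.96 and with Palmul-tang by -0.28, and no call of the 5 genes between high and low dose changed.

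The counts over all genes moved more, but less so with Glycyrrhizae. There they ran from 5838 with only the compared groups to 7081 with the block, against 6568. Fitting only the compared groups gave 21 calls for Ginseng, against 214, 123 for Poria, against 275, 323 for Sibjeondaebo-tang, against 672, 21 for Atractylodis, against 37, and 577 for Palmul-tang, against 370. Atractylodis had 67 calls with DESeq2, 209 with no filter and 86 with the block. The block gave 334 for Ginseng, 493 for Poria, 1014 for Sibjeondaebo-tang and 577 for Palmul-tang. Without 1 library the counts ran from 94 to 245 for Ginseng, 142 to 196 for Poria, 16 to 30 for Atractylodis, 377 to 502 for Sibjeondaebo-tang and 108 to 172 for Palmul-tang. The depth of PLAT and F3, at 12 to 72 reads per library, limits what can be seen of them.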

Other observations

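The single Paeoniae high-dose library was also high in a partner of the activators, with no test since there is 1 library. The clearance receptor LRP1 had 149 CPM, against 54.2 CPM at low dose. Of the 19 tested partners, 1 was higher by a log2(CPM + 1) difference of at least 1 and 0 were lower, with a median of 0.07. The collagenase MMP1 had 1.69 CPM in that library and was listed at 0 at low dose. It was the 1 gene higher by that much among 17 matrix proteases and inhibitors, with 0 lower and a median of 0.29. Of the 22 AP-1, ETS and EGR factors, 8 were higher by a log2(CPM + 1) difference of at least 1 and 1, EHF, was lower, where 2.12% of all genes were higher by that much and 2.66% lower. FOS had 35.3 CPM, against 7.69 CPM, JUN 35.1 CPM, against 11.8 CPM, and EGR1 12.1 CPM, against 3.24 CPM. Coagulation factor F5 had 1.35 CPM, against 5.79 CPM. It was the 1 gene lower by that much among 12 of the tissue factor and thrombin list, with 0 higher and a median of -0.03.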
